A study of Mus musculus with 3 samples.

Results

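Cadherins and protocadherins are calcium-dependent adhesion proteins of the cell surface, and 57 of their genes were measured in sorted mouse mesangial cells, among 18685 named genes. They were chosen by symbol, as every gene whose symbol starts with Cdh and a digit, or with Pcdh and a digit or the letter a, b or g. The 4 genes with several probe sets are given by the probe set of highest mean. The 57 were 23 cadherins, 12 protocadherins that lie outside the gene clusters and 22 genes of the protocadherin beta cluster. The RefSeq gene table held 93 such genes, and the other 36, which were all 14 alpha cluster and all 22 gamma cluster genes, are not analysed here because no probe set was annotated to one of them alone.

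Mesangial cells resemble pericytes, contract, and support the capillaries of the glomerulus, the filter of the kidney. There was 1 group of 3 samples and no control population. Each sample was sorted cells of 1 kidney, labelled as mesangium inside and around the glomerulus, of adult male CD-1 mice with the transgene Tg(Meis1-EGFP)FO156Gsat, which makes green fluorescent protein from Meis1 sequence. Sieved glomeruli were dissociated and sorted, so the reporter selected the cells and cells of other types that carry it or its signal are not separated from them. Whether different mice gave the 3 kidneys is not in the labels, so an SD here covers the spread between these samples, some of which may be technical.

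Classical cadherins join neighbouring cells by binding like molecules through their outer repeats, while their tails hold catenins that link them to actin. The type I members include the epithelial and neural cadherins, and the type II members include those of vessels and mesenchyme. Protocadherins have more outer repeats and other tails. The clustered ones are best known for giving neurons their surface identity, and the others take part in cell sorting and movement. In the kidney, Cdh1, Cdh16 and Cdh6 are known from tubule epithelium and Cdh5 from endothelium.

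All values are the deposited log2 signals, given for samples 1, 2 and 3 in that order or as the mean ± SD (n = 3). The threshold of an array was the 95th percentile of its signals over 1269 probe sets for genes that should be silent in kidney, namely those for receptors of smell, pheromones and trace amines and for hair proteins bound to keratin. A gene counted as above it when it passed on every array. These thresholds were 7.48, 7.46 and 7.40 on the 3 arrays. Of the 1253 silent genes, 4.71% passed, and 0.958% passed the thresholds raised by 1. Probe sets differ in affinity, so each gene was set against the threshold and the values do not rank genes by amount. In sorted but bulk RNA, fewer cells with a transcript and less of it per cell cannot be told apart.

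Most cadherin and protocadherin genes did not pass the silent-gene threshold in these cells. Above the threshold were 13 of the 57 members (22.8%), against 58.0% of all named genes, and 4 (7.02%) lay more than 1 above it on all 3 arrays, against 32.7% of all named genes. These 4 were the protocadherin genes Pcdh18, Pcdh12 and Pcdh1 and the type II cadherin gene Cdh24. On none of the 3 arrays above the threshold were 42 members (73.7%), against 38.8% of all named genes, and 2, Cdh6 and Pcdh17, passed on sample 3 alone. The median of the member means was 6.56, and that of all named genes was 7.80. Members and lists were chosen with earlier results of these data known, so these shares are a description and no test was made on them.

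Marker lists of the labelled cell type and of others are given as a description. They are to be read against the 58.0% of all named genes that lay above the threshold and the 32.7% more than 1 above it. The lists were chosen with earlier results of these data known, so they are no test of the label. The 13 measured markers of mesangial cells all passed the raised threshold, with Ptn at 13.10 ± 0.12, Itga8 at 12.96 ± 0.01, Igfbp5 at 12.71 ± 0.20 and Cspg4, the lowest, at 9.41 ± 0.04. Of 14 endothelial markers 13 lay above the threshold and 9 by more than 1, with Cd34 at 11.99, Eng at 11.17 ± 0.17, Tek at 10.78 ± 0.12 and Sox17, not above, at 6.58. Cldn5, Pecam1, Kdr and Tie1 passed by only 0.070 to 0.27. Of 6 podocyte markers 4 lay above the threshold and 2 by more than 1 (Cd2ap at 11.21, Wt1 at 10.15 ± 0.08, Synpo at 8.26 ± 0.16 and Ptpro, not above, at 6.75 ± 0.08). Nphs1 had 7.35, 7.35 and 7.46 and passed the threshold in sample 3 alone. Of 14 tubule markers 8 (57.1%, near the share of all named genes) lay above it and none by more than 1 on all 3 arrays (Umod at 8.97 ± 0.67, Krt8 at 8.41 ± 0.01, Slc22a12 at 8.36 and Fbp1, not above, at 6.06). Some passed by more than 1 in part of the samples. These were Umod (9.51, 9.18 and 8.22) in samples 1 and 2 and Calb1 (7.72, 8.66 and 8.49) in samples 2 and 3. Kap (8.44, 8.51 and 7.17) did so in sample 2 and Krt8 in sample 3. Parietal epithelial markers stood at 3 of 6 (Cd24a at 12.01 ± 0.33, Cd9 at 7.56 ± 0.09, Pax8 at 7.56 and Cd44, not above, at 6.21), with Cd24a alone more than 1 above. Leukocyte markers stood at 4 of 9 (Cx3cr1 at 8.03, Cd68 at 7.85 ± 0.07, Cd3e at 7.78 and Cd79a, not above, at 5.19 ± 0.01) and Schwann cell markers at 3 of 5, also near that share (Sox10 at 7.80, Ngfr at 7.67 ± 0.04, Mbp at 7.65 and S100b, not above, at 6.82 ± 0.04), none by more than 1. None of 9 neuron markers passed (Gap43 at 7.35, Syt1 at 7.26, Syn1 at 7.21 and Nefm, the lowest, at 5.82 ± 0.02).

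Pcdh18, a delta-2 protocadherin known in mice to bind the adaptor protein Dab1, had the largest margin over the threshold of the 57 members. Its value was 10.96 in each of the 3 samples, 3.48 above the threshold in sample 1 and 3.56 above it in sample 3. The other 4 delta-2 genes were not above the threshold on all 3 arrays. Pcdh17 had 7.44, 7.46 and 7.46 and lay above the threshold in sample 3 alone, by 0.054. Pcdh19, an X-linked gene whose loss causes epilepsy in people, had 7.04 in each sample, Pcdh8, an activity-regulated protocadherin of neurons, 6.86 and Pcdh10, known from axon growth, 6.22.

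Pcdh12, also called vascular endothelial cadherin 2 and known in mice from endothelium, placenta and glomerular mesangium, had 9.80, 9.57 and 10.24 in the 3 samples. The values lay 2.11 to 2.84 above the threshold. Sample 3 was the highest and sample 2 the lowest, and the span of 0.67 was the widest of any member (mean 9.87 ± 0.34). The mean level of the 14 endothelial markers was 9.16, 9.10 and 9.19 in samples 1, 2 and 3, in the same order as Pcdh12 but over a narrower range. The list means of podocyte markers (8.57, 8.52 and 8.60) and parietal epithelial markers (8.03, 7.94 and 8.09) had that order too. Those of the other marker lists did not. Within a list the genes differed in order. Among endothelial markers Ehd3, Emcn and Ptprb had the order of Pcdh12, and the others, such as Eng (11.32, 10.98 and 11.21), did not. Synpo alone had it among podocyte markers, and no parietal epithelial marker did. The part of any of these cells in the Pcdh12 values was not tested. Cdh5, the vascular endothelial cadherin that endothelial junctions are built on, had 7.61, 7.69 and 7.69. That is above the threshold on each array, by 0.13 to 0.29.

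Pcdh1, a delta-1 protocadherin known from airway epithelium, had 9.06, 9.06 and 9.39. Samples 1 and 2 held the same value, sample 3 was higher, and they lay 1.59 to 1.99 above the threshold (mean 9.17 ± 0.19). In the RefSeq gene table Pcdh1 and Pcdh12 are neighbours, with 1 protein-coding gene, Dele1, between them. In both genes sample 3 was the highest, and a link of this to their position was not tested. Of the 18 members with 2 different values, Pcdh1 among them, 5 had sample 3 alone higher and 5 had sample 1 alone higher. The other delta-1 genes, best known from the nervous system, were not above the threshold on any array. Pcdh7 had 7.05 and Pcdh9 6.56 in each sample, and Pcdh11x had 5.71, 5.71 and 5.56. Pcdh15, whose product forms the tip links of hair cells in the ear, had 7.28, 7.21 and 7.28, and Pcdh20 had 5.38 in each sample. Neither was above the threshold on any array.

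**Figure D1:**
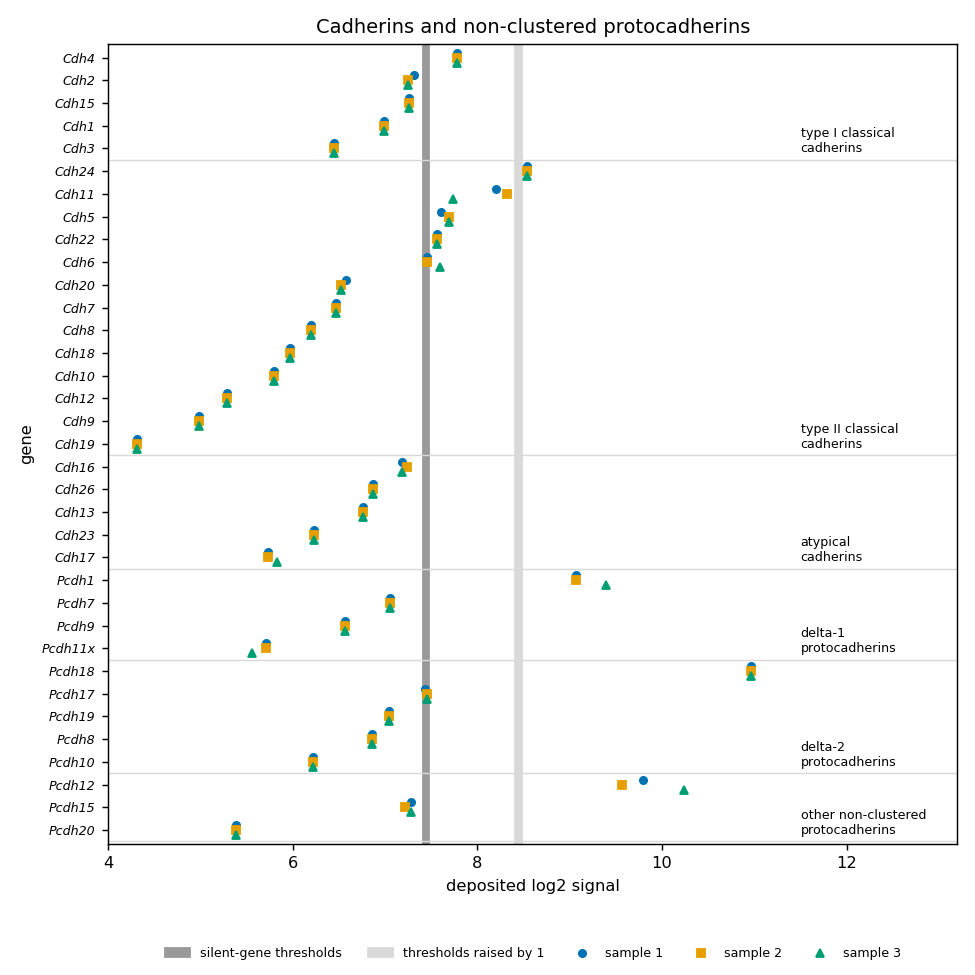
Deposited log2 signal (horizontal axis) of the 35 members outside the beta cluster (vertical axis, grouped by family), with a circle, square and triangle for samples 1, 2 and 3. The dark and light bands span the 3 silent-gene thresholds and the thresholds raised by 1. Pcdh18, Pcdh12, Pcdh1 and Cdh24 lie to the right of the light band, and 8 of the 35 lie to the right of the dark band in all 3 samples.

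Type I cadherins, which build adherens junctions in epithelium, nerve and muscle, stood at 1 of 5 above the threshold (20%, against 58.0% of all named genes). None lay more than 1 above it. The 1 was Cdh4, retinal cadherin, with 7.78 in each sample, at most 0.38 above the threshold. Cdh2, neural cadherin, had 7.32, 7.24 and 7.24, and the muscle cadherin gene Cdh15 had 7.26 in each sample. Their margins to the threshold ran from -0.22 to -0.15 over the 3 arrays. Cdh1, epithelial cadherin, had 6.98, 6.99 and 6.98, and its neighbour in the RefSeq gene table, the placental cadherin gene Cdh3, had 6.44 in each sample. None of these 4 was above the threshold in any sample.

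Type II cadherins stood at 4 of 13 above the threshold (30.8%, against 58.0% of all named genes), and 1 by more than 1 (7.69%, against 32.7%). Cdh24 had 8.54 in each sample on the probe set used, between 1.06 and 1.14 above the threshold. A second Cdh24 probe set had 7.27 in each sample and was not above it, so the 2 probe sets of this gene gave opposite calls. Cdh22, known from brain and pituitary, had 7.56 in each sample, less than 0.16 above the threshold. Cdh6, first known from fetal kidney, had 7.46, 7.46 and 7.59, so that sample 3 passed, while samples 1 and 2 had margins of -0.022 and -0.0034. The remaining type II genes, several of which are known from neurons, were not above the threshold in any sample. Cdh20 had 6.54 ± 0.03, and the others had the same value in each sample, which was 6.47 for Cdh7, 6.20 for Cdh8, 5.97 for Cdh18, 5.79 for Cdh10, 5.29 for Cdh12, 4.98 for Cdh9 and 4.31 for Cdh19, a cadherin of Schwann cell precursors. Cdh19 was the lowest of the 57 members.

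Cdh11, a cadherin of mesenchymal cells, had 8.20, 8.32 and 7.74 on its own probe set. All 3 samples lay above the threshold, by 0.33 to 0.86, and sample 3 was the lowest (mean 8.08 ± 0.31). Cdh11 was also named on 3 probe sets that carry the symbols of 2 further genes, 6820431F20Rik and 2610005L07Rik, both annotated in RefSeq as transcribed pseudogenes. Those probe sets had means of 12.47 ± 0.16, 12.14 ± 0.14 and 11.23 ± 0.15. In each of the 3, sample 1 was the lowest, whereas on the probe set of Cdh11 alone sample 3 was the lowest. Which of the 3 genes gave the signal of the shared probe sets cannot be told apart, so these values were not counted for Cdh11.

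None of the 5 atypical cadherins was above the threshold on any array. Cdh16, the kidney-specific cadherin of tubule cells, had 7.19, 7.24 and 7.19. Cdh26, known from gut epithelium, had 6.86 in each sample, and Cdh13, which has a lipid anchor in place of a tail and binds adiponectin, had 6.76. Cdh23, the partner of Pcdh15 in tip links, had 6.23 in each sample, and Cdh17, of liver and intestine, had 5.73, 5.73 and 5.83.

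The protocadherin beta cluster, a row of single-exon genes that each have their own promoter, stood at 5 of 22 above the threshold (22.7%). Among the other members 8 of 35 (22.9%) passed, and among all named genes 58.0%. None of the 22 lay more than 1 above it. Pcdhb16 had 8.18, 8.13 and 7.96, Pcdhb17 7.64, 8.07 and 7.75, and Pcdhb4 7.65 in each sample. The other 2 above the threshold, Pcdhb22 at 7.52 and Pcdhb15 at 7.51 in each sample, were picked out after their values were seen and passed it by 0.12 or less. Pcdhb15, Pcdhb16 and Pcdhb17 stand next to each other in the cluster, and Pcdhb4 and Pcdhb22 stand apart from them. The 17 not above the threshold on any array had means from 4.37, of Pcdhb9 (4.32, 4.40 and 4.40), to 6.98. Pcdhb6 had the largest SD of the cluster, with 6.81, 6.37 and 6.27 in the 3 samples (mean 6.48 ± 0.28). Beta genes are close copies of each other, and how far their probe sets share signal was not tested. The alpha cluster had 1 probe set, naming all 14 of its genes, with 6.51 in each sample, which was not above the threshold.

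**Figure D2:**
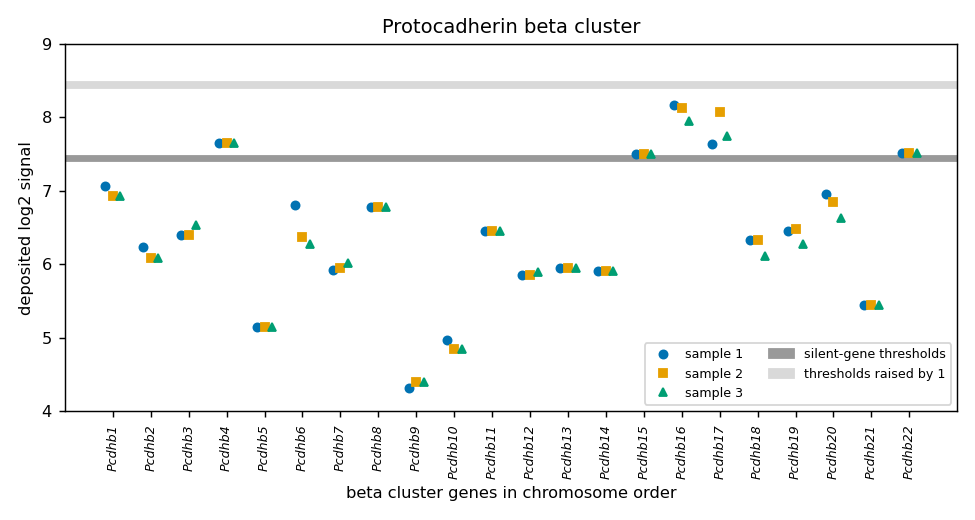
Deposited log2 signal (vertical axis) of the 22 beta cluster genes in chromosome order (horizontal axis), with a circle, square and triangle for samples 1, 2 and 3 and bands for the silent-gene thresholds and the thresholds raised by 1. Pcdhb4, Pcdhb15, Pcdhb16, Pcdhb17 and Pcdhb22 lie above the dark band, and no gene reaches the light band.

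Promoters from RefSeq on GRCm38.p6 were at hand for 22 members, 3 of them above the threshold. Shown are the 250 bases before the start for the members above the threshold with the largest margins that had an entry, Pcdh18 (chr3:49757317-49757566, minus strand) and Cdh24 (chr14:54641365-54641614, minus strand), and for the lowest member that had one, Cdh9 (chr15:16728665-16728914, plus strand). Capitals mark the CG pairs, the bases at which mammalian DNA is methylated.
Pcdh18: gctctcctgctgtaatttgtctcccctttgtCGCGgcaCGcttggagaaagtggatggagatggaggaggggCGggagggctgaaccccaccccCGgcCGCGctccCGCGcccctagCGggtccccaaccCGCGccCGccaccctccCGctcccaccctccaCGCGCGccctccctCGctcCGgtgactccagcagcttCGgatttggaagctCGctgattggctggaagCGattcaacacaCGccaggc
Cdh24: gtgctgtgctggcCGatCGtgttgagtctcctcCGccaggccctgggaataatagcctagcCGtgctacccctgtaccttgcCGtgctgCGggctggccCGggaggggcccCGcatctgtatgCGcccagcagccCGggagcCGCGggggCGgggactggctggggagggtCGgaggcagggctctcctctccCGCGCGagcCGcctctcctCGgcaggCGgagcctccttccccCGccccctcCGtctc
Cdh9: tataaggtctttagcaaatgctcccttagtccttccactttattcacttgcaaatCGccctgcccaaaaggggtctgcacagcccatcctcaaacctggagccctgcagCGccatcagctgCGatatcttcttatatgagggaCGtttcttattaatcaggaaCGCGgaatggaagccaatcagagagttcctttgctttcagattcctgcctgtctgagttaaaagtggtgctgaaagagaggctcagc
The motif searched was CG, which reads the same on both strands and occurred at least once in 92.1% of all 32851 promoters of this length. Pcdh18 held 23 CG pairs, Cdh24 22 and Cdh22 30, against 0 to 22 in the 22 promoters of the 19 members not above the threshold. As many CG pairs or more as in Pcdh18 were found in 13.3% of all promoters, as in Cdh24 in 14.8%, as in Cdh22 in 5.94% and as in Cdh9, with 6, in 50.4%. The ranges met, since the Pcdh10 promoter also held 22 CG pairs and that of Pcdh17 21. Of the 3 genes above the threshold, Cdh22 passed by only 0.084 to 0.16, and Cdh24 had a second probe set that was not above it. A link between CG pairs and signal was not tested.

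Lists of genes that work with cadherins differed in the share above the threshold. Among all named genes it was 58.0%, with 32.7% more than 1 above it. Of 11 catenins and actin linkers 8 lay above the threshold (72.7%) and 6 by more than 1 (54.5%). Vinculin (Vcl), which anchors junctions to actin, had 12.30 ± 0.06, the p120 catenin gene Ctnnd1 10.77 and the alpha catenin gene Ctnna1 10.70, while Ctnna2, the alpha catenin of neurons, had 6.07 and was not above it. Of 5 genes of nectins and afadin, a second adhesion system of adherens junctions, 4 lay above it (80%) and 2 by more than 1 (40%). Afdn had 9.93, Nectin3 9.52 ± 0.01 and Nectin2 8.08, and Nectin4, at 7.16, was not above it.

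Desmosome genes, which join epithelial cells to keratin filaments, stood at 2 of 12 above the threshold (16.7%, against 58.0% of all named genes). None lay more than 1 above it. The plakophilin gene Pkp3 had 8.29 and Perp 7.97 ± 0.32, while Pkp1 at 7.40 and the desmocollin gene Dsc2, the lowest, at 5.53 were not above it. The list of Fat, Dachsous and flamingo cadherins, giant proteins that serve planar polarity, also held the kinase gene Fjx1. In it 6 of 9 genes lay above the threshold (66.7%, near the 58.0% of all named genes) and 1 by more than 1 (11.1%, against 32.7%). Fat1, known from podocytes and tubule cells, had 11.28, 10.89 and 11.33 (mean 11.17 ± 0.24), Fat4 8.23 ± 0.16 and Fjx1 8.11 ± 0.34, and Celsr3, at 6.96, was not above it. Of 9 other genes with cadherin repeats 2 lay above it (22.2%), the calsyntenin gene Clstn1 at 9.39 ± 0.01 and Cdhr4 at 8.02. The receptor gene Ret at 7.38 and Cdhr2, of microvilli, at 6.44 were not above it.

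All 7 genes of a list of transcription factors known to repress Cdh1 lay above the threshold, against 58.0% of all named genes, and 5 by more than 1 (71.4%, against 32.7%). Cdh1 itself was 1 of the 42 members (73.7%) not above the threshold on any array, and a part of these factors in that was not tested. Zeb2 had 11.34, Zeb1 11.24 ± 0.10, Snai2 10.28 ± 0.04 and Twist2, the lowest, 7.49, which passed by only 0.0099 to 0.085. Of 13 regulators known to fold or silence the protocadherin clusters 12 (92.3%) lay above the threshold, all 12 by more than 1. The cohesin genes Smc1a, Smc3 and Rad21 had 11.69 ± 0.01, 11.55 ± 0.02 and 11.54, and the DNA methyltransferase gene Dnmt3b, at 7.32, was not above it. Many of these regulators act on chromosomes in all cells. Of 8 genes for effectors of protocadherin tails 6 (75%) lay above the threshold and 5 (62.5%) by more than 1, with the actin regulators Abi1 at 11.23 ± 0.08, Wasf2 at 11.15 and Nckap1 at 10.80, and with the kinase gene Ptk2b, not above, at 7.08 ± 0.01. All 5 measured genes for cleavage of cadherins by Adam10 and gamma-secretase lay more than 1 above it, with Psenen at 10.83 ± 0.31, Psen2 at 10.01 ± 0.10, Ncstn at 9.47 and Aph1a, the lowest, at 9.06 ± 0.06.

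**Figure D3:**
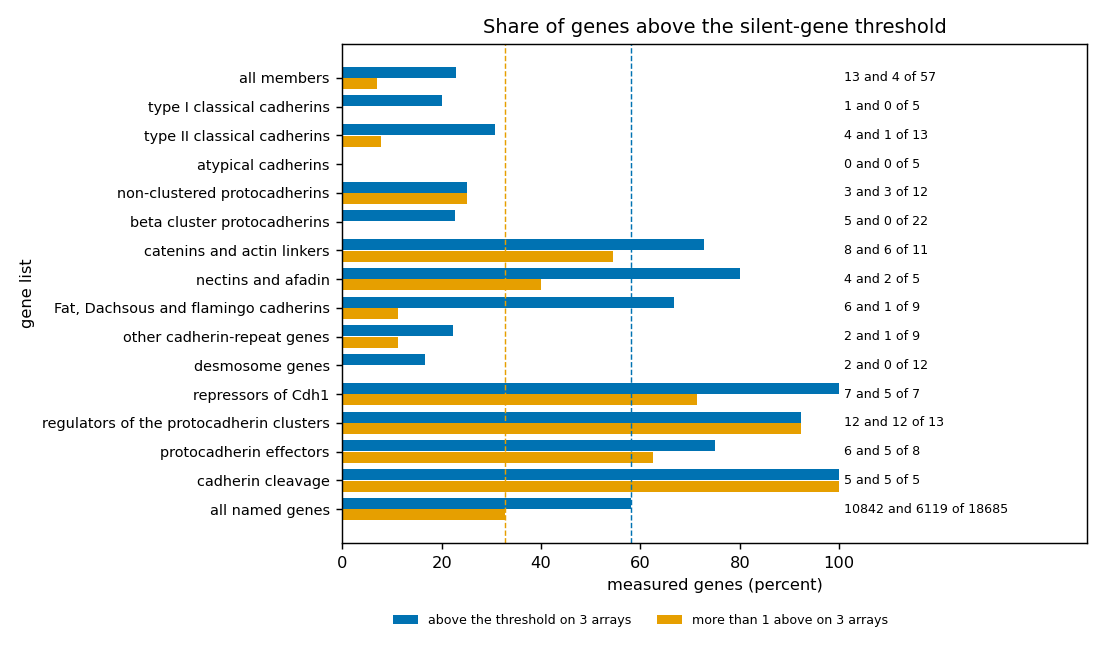
Percent of measured genes (horizontal axis) that passed the silent-gene threshold in every sample (blue) and more than 1 above it (orange) for the members, their families and the partner lists (vertical axis), with counts at the right and dashed lines at the values of all named genes. The bar of all members ends at 22.8%, left of the dashed line at 58.0%, and the bars for Cdh1 repressors and cadherin cleavage reach 100%.

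The deposited values of most of these genes were the same or close in the 3 samples. Of the 57 members 31 (54.4%) had 1 identical value on all 3 arrays, against 51.1% of all named genes, 18 had 2 different values and 8 had 3. The value of 41 members (71.9%) recurred, to 5 decimals, in another probe set of the same array, on at least 1 array, against 59.4% of all named genes. Of the 13 members above the threshold 7 had 1 identical value on all 3 arrays. The reason for such values is unknown. An SD of 0 therefore does not show that a gene was measured without error, and identical values do not show that separate measurements agreed. A span of at least 0.5 between the highest and lowest sample was found in 3 members (5.26%), against 3.43% of all named genes. They were Pcdh12, Cdh11 and Pcdhb6. The highest sample was a different one in each, sample 3 for Pcdh12, sample 2 for Cdh11 and sample 1 for Pcdhb6. Without sample 1 the count was 2, without sample 2 it was 1 and without sample 3 it was 0. Among the 8 members with 3 different values sample 3 was the lowest in 5, sample 1 in 2 and sample 2 in 1.

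**Figure D4:**
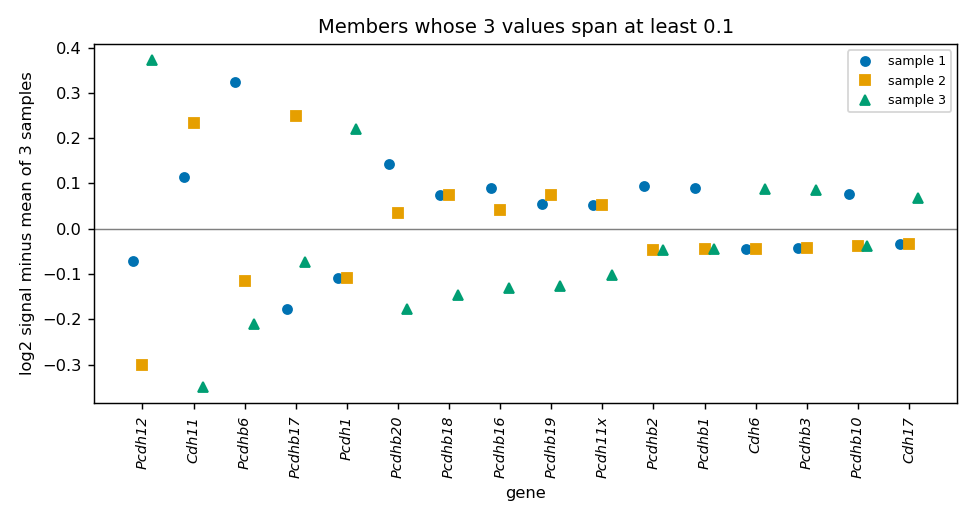
Log2 signal minus the mean of the 3 samples (vertical axis) for the members whose values span at least 0.1 (horizontal axis, widest first), with a circle, square and triangle for samples 1, 2 and 3. Pcdh12, Cdh11 and Pcdhb6, at the left, span 0.67, 0.58 and 0.53, and the sample that stands highest differs between them.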

How the data were processed

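Per the labels' protocols, RNA of 3 samples went through 1 round of amplification (WT-Ovation Pico) and biotin labelling before hybridisation, 1 array each. Deposited are log2 signals per probe set. The submitters' processing notes name Affymetrix Expression Console, with its version, background correction and summary method not given in the sources used here, and scale and centring are unknown. The log base was inferred from the highest value, 14.39. The array medians were 7.53, 7.56 and 7.54, and precision is limited by having 3 arrays.

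Of 35557 probe sets, 21789 had exactly 1 gene symbol, 1621 had several and 12147 were not listed. Symbols were updated by Entrez number with RefSeq GRCm38.p6 (21698 matched). Values were used as deposited, with python 3.11.15, numpy 2.4.6 and pandas 2.3.3. Alternatives were the percentile, the silent families, the array rule, the probe set choice, centring and each sample left out.

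Members and gene lists were chosen with earlier results of these data known, and with 1 group no test was made. Named are all members outside the clusters, in each cluster the 3 highest, the lowest and the most variable, and in each list the 3 highest and the lowest. The markers Cldn5, Pecam1, Kdr, Tie1, Ehd3, Emcn, Ptprb, Nphs1, Calb1 and Kap were named in addition after their values were seen.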

Additional observations from a re-analysis of the deposited data

How the results depend on the processing

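The counts of members above the threshold depended on the percentile of silent genes that set it. At the 99th percentile 4 of the 57 members passed, beside 35.3% of all named genes, and 2 passed it raised by 1, beside 17.2%. At the 90th percentile 19 members passed, beside 68.8%, and the count rose to 3 among type I cadherins, to 5 among type II cadherins, to 1 among atypical cadherins, to 2 each among delta-2 and the other non-clustered protocadherins, to 4 among desmosome genes, to 5 each among nectins with afadin and other genes with cadherin repeats, to 8 in the Fat, Dachsous and flamingo list, to 13 among cluster regulators and to 7 among effectors. Under the other settings, which were olfactory receptors alone, array means, other probe set choices, centring and samples left out, 12 to 15 members passed, and 3 to 5 passed the threshold raised by 1. The 5 arose when the shared probe sets were counted for Cdh11, a setting chosen after seeing the data. With the lowest probe set of each gene, or the mean of its probe sets, 3 passed the raised threshold. Leaving out 1 sample at a time left 13 and 4, and moved no count of a family or partner list. For the 31 members with 1 identical value on all 3 arrays this could hardly turn out otherwise, as the 3 thresholds lay close together. Among the marker lists, which were rechecked this way after seeing the data, parietal markers stood at 4 without sample 2 and tubule markers at 9 without sample 3. No member spanned 1 or more. With 1 sample left out 0 to 2 members spanned 0.5 or more, and with 2 samples a span has fewer values to cover. No paired analysis was possible because there was 1 group. With 3 arrays and no raw signal, a member within about 0.2 of the threshold cannot be placed on either side of it with confidence.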
